A study of Mus musculus with 3 samples.

Results

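The circadian clock genes Clock, Arntl, Per1, Per2, Per3, Cry1, Cry2, Nr1d1, Nr1d2 and Dbp were described in SB28, a transplantable mouse glioblastoma line on the C57BL/6 background. They were taken by symbol, and all 10 were among the 24421 genes listed in the count tables. The series holds RNA-seq of 3 libraries of SB28, labelled replicates 1, 2 and 3, which form 1 group with no control, treatment or time point. From general knowledge of the line and not from the labels, the tumour behind SB28 was raised in a mouse brain with transposons carrying an activated NRAS, a PDGF gene and a hairpin against p53, and all 3 libraries share that origin. The labels give 1 µg of total RNA per library and name no culture condition, harvest time, cell density or passage, and they do not state whether each replicate was its own culture. Spreads and p-values therefore describe these 3 samples, and the differences may be technical.

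The mammalian clock is a feedback loop of transcription that runs in most cells, including glia and glioma cells in culture. CLOCK and BMAL1, the product of Arntl, bind DNA as a pair at E-boxes and switch on the Per, Cry, Nr1d and Dbp genes. PER and CRY proteins return to the nucleus and inhibit that pair, while REV-ERB alpha and beta, the products of Nr1d1 and Nr1d2, repress Arntl through ROR elements, where the ROR receptors activate. DBP drives genes with D-boxes and is a direct output of the loop. In a population of cells whose clocks are not aligned, RNA from bulk lysate averages over their phases, and fewer expressing cells and less RNA per cell cannot be told apart.

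Promoter windows were searched for the letters of the elements that clock factors are known to bind, and of the cyclic AMP response element. RefSeq promoters of GRCm38.p6, each from 250 bases before to 50 bases after a transcription start, were found by symbol for 9 of the 10 members, in 13 windows. Per2 had no window and was not searched. Both strands were read for the E-box CACGTG, the related E-prime-box CACGTT, the D-box TTATGTAA or TTACGTAA, the ROR element TAGGTCA or TGGGTCA and the cyclic AMP response element TGACGTCA; no match overlapped another motif. The stretches below are printed 5′ to 3′ in the direction of the gene, with the matched letters in capitals, because they belong to a member that hardly varied between libraries (Cry1), to members lower in replicate 3 (Per1, Per3 and Dbp) and to a member higher there (Arntl). The windows are the 250 bases before the start, and for Arntl the 30 bases around its match.
Arntl, chr7:113207530-113207559, plus strand: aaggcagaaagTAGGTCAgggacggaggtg
Cry1, chr10:85185055-85185304, minus strand: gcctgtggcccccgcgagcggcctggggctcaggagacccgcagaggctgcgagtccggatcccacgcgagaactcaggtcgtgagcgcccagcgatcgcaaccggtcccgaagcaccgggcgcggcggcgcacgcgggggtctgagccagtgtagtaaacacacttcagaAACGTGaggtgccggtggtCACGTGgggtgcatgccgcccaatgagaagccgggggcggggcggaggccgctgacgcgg
Per1, chr11:69098699-69098948, plus strand: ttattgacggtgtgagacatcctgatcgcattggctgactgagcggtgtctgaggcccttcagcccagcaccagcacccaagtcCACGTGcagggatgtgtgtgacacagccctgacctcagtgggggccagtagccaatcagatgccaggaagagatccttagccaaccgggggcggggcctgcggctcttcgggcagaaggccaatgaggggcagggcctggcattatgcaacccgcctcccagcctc
Per3, chr4:151044666-151044915, minus strand: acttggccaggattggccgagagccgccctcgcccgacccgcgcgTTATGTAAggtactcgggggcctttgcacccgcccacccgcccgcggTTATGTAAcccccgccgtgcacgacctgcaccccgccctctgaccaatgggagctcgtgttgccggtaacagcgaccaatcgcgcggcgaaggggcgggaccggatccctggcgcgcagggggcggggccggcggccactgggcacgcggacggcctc
Dbp, chr7:45704997-45705246, plus strand: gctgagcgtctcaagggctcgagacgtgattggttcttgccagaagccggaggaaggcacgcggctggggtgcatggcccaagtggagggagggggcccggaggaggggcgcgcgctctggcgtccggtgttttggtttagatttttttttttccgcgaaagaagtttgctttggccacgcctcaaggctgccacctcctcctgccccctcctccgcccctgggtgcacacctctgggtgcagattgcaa

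The E-box was found in 2 of the 9 members, Per1 and Cry1, 166 and 60 bases before the start, against 8.09% of the 27025 genes with a window. The E-prime-box lay in 3 members, at 79 bases before the start in Cry1, 166 in Cry2 and 28 in Nr1d1, against 5.44% of genes. Only Per3 among the members held the D-box, in 2 copies 205 and 158 bases before its start, against 1.23% of genes. Only Arntl held the ROR element, in its second window, 30 bases after the transcription start, against 7.35% of genes. No member window held the cyclic AMP response element, which 2.03% of genes held. These are matches of letters in a short window, and the Dbp window printed above held none of them. The printed stretches are examples, and other members lower or higher in replicate 3 are not printed. Any link between these letters and the differences between libraries was not tested.

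The 3 libraries held 28990128 to 36019009 counts assigned to genes, and the limit that a count of 0 allows, 3 counts, was 0.0833 to 0.103 counts per 1000000 (CPM); it covers counting error only. Replicates 1 and 2 lay close together and replicate 3 lay apart. With a chi-square test of counts and Benjamini-Hochberg adjustment, 2.01% of 12737 genes differed between replicates 1 and 2, against 64.2% between 1 and 3 and 62.7% between 2 and 3. Replicate 3 also had the highest share of reads outside genes, 6.54% against 5.19% and 5.27%. The line markers Vim, Nes, Nras and Pdgfb were detected in every library. The defining astrocyte and oligodendrocyte genes Gfap, Aqp4, Olig1 and Olig2 had 0 counts, as had Rbfox3 for neurons, Aif1 for microglia, Cd3e and Cd8a for lymphocytes, Cldn5 for endothelium and all 3 erythroid genes. Summed over 4 genes, the astrocyte markers stood at 20.7, 20.9 and 2.21 CPM in replicates 1, 2 and 3, nearly all of it Aldoc (20.2, 20.4 and 1.65). The summed neuron markers stood at 10.4, 10.7 and 5.64 CPM, nearly all of it Syn1 (9.91, 10.1 and 5.42). The microglia and macrophage markers summed to 5.22, 4.79 and 3.43 CPM, nearly all of it Cd68. The endothelial markers summed to 381, 372 and 305 CPM, nearly all of it Cdh5 (380, 371 and 303). Kdr, also endothelial, went the other way, at 1.11, 1.07 and 2.64 CPM. The part of all these markers in the differences below was not tested.

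All 10 clock genes were expressed. Each reached 1 CPM in all 3 libraries, the limit used for detection here, while 46.6% of the genes listed did. Means ran from 3.79 CPM for Per2 to 71.9 CPM for Arntl. The members' median was 23.6 CPM against 35.9 CPM over the 11379 detected genes, and 4.98 against 7.57 when CPM was divided by exon length in kilobases. Where 3 values are given they stand in the order replicate 1, 2, 3, and errors are SDs over the 3 libraries (n = 3).

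**Figure D1:**
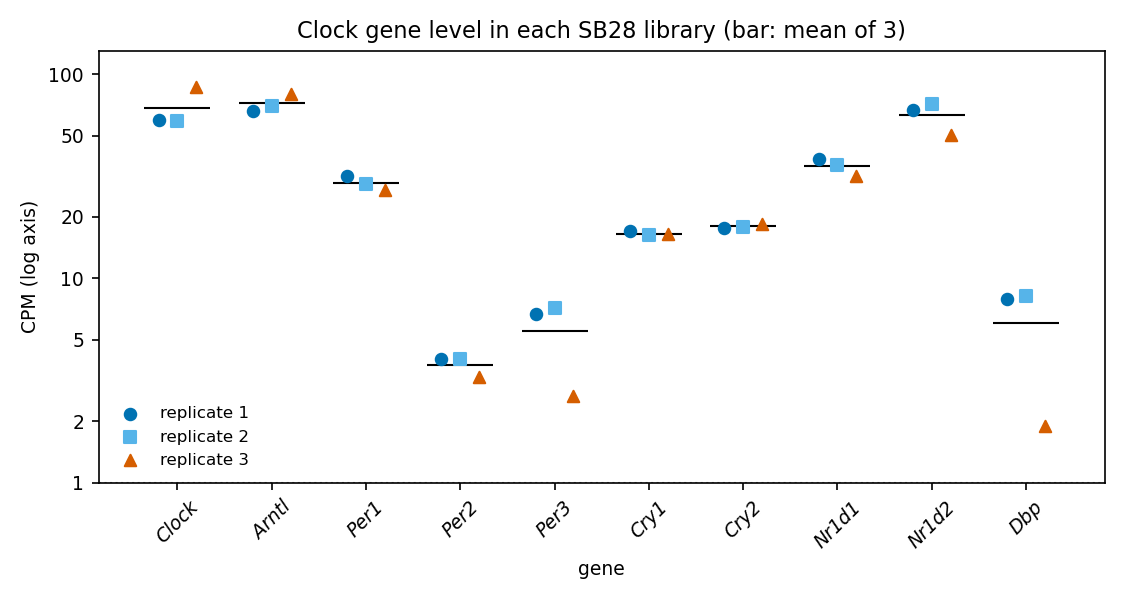
Level of each clock gene in CPM (log axis) in the 3 SB28 libraries; each point is 1 library and each short bar the mean of 3. Dbp at 1.90 and Per3 at 2.67 CPM in replicate 3 (triangles) lie far below replicates 1 and 2, while Clock and Arntl are highest in replicate 3 and the 3 points of Cry1 and Cry2 nearly coincide.

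The activators Clock and Arntl were among the highest members by CPM, and both were higher in replicate 3. Clock, the partner gene of Arntl, measured 59.6, 59.1 and 86.7 CPM (mean 68.5 ± 15.8, n = 3), so that replicate 3 lay 1.46-fold above the mean of the other two. Arntl measured 66.2, 70.1 and 79.6 CPM (71.9 ± 6.87), with replicate 3 1.17-fold above. Both differed between libraries by more than counting noise (chi-square test, adjusted p = 7.45e-53 for Clock and 1.88e-10 for Arntl). Per kilobase of union exon, Clock (4.99 ± 1.15) stood at 0.515 of Arntl (range over libraries 0.462 to 0.597), a difference larger than the spread between libraries. The size of that ratio rests on the exon models, 13727 bases for Clock and 7523 for Arntl. It was 0.385 with the longest transcript and 0.939, no longer larger than the spread, without length.

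The Period genes differed widely in level. Per1, a family member that also responds quickly to outside signals, measured 31.8, 29.1 and 27.0 CPM (29.3 ± 2.40). Per2, a core part of the repressor complex, measured 4.05, 4.04 and 3.28 CPM (3.79 ± 0.442), from 146, 117 and 107 counts. Per3, the least essential for rhythm in mice, measured 6.72, 7.17 and 2.67 CPM (5.52 ± 2.48), from 242, 208 and 87 counts. All 3 were lowest in replicate 3, by a small step in Per1 and Per2 and by a large one in Per3, whose replicate 3 stood at 0.384 of the mean of the other two. The exact 95% counting interval of Per3 was 5.90 to 7.62 CPM in replicate 1, 6.23 to 8.22 in replicate 2 and 2.14 to 3.29 in replicate 3, so the last did not overlap the others. With the chi-square test, Per3 (adjusted p = 1.67e-15) and Per1 (adjusted p = 0.00318) varied beyond counting noise and Per2 did not (adjusted p = 0.258). Per2 had 370 counts in all and Per1 had 2869. Replicate 3 stood at 0.811 of the mean of replicates 1 and 2 in Per2 and at 0.887 in Per1. The missing call therefore does not show that Per2 was steadier than Per1. The Per1 call was lost when replicate 1 was left out (adjusted p = 0.221).

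Per1 stood above Per2 in every library. Per kilobase the ratio was 8.13, 7.47 and 8.53 (mean 8.03-fold), larger than the spread. Per2 and Per3 could not be ordered: their ratio was 0.991 and 0.925 in replicates 1 and 2 and 2.02 in replicate 3, where Per3 was low.

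The cryptochromes were the steadiest members. Cry1, the stronger repressor of the pair, measured 17.0, 16.3 and 16.5 CPM (16.6 ± 0.365). Cry2, its paralog, measured 17.7, 17.8 and 18.4 CPM (18.0 ± 0.384). Their highest library exceeded their lowest by 1.04-fold in each case, a spread that only 6.90% and 5.54% of the tested genes undercut. Neither differed between libraries beyond counting noise (chi-square test, adjusted p = 0.797 and 0.736), although replicate 3 differed from the other two in most genes. Per kilobase Cry1 lay above Cry2, by 1.81, 1.73 and 1.69-fold (mean 1.75-fold), larger than the spread, and by 1.21-fold with the longest transcript. By CPM alone the order was the opposite, at 0.923, since the union of Cry2 exons is longer (6320 bases against 3340).

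The REV-ERB genes were lower in replicate 3. Nr1d1 measured 38.5, 35.8 and 31.6 CPM (35.3 ± 3.49), and Nr1d2 measured 66.6, 71.4 and 50.3 CPM (62.7 ± 11.1). Replicate 3 stood at 0.850 and 0.728 of the mean of the other two, and both genes varied beyond counting noise (chi-square test, adjusted p = 3.61e-05 and 8.71e-26). Arntl was highest in replicate 3, where 33% of all genes tested varied and were highest. A link to the REV-ERB genes was not tested. Per kilobase the paralogs were level: the ratio of Nr1d2 to Nr1d1 was 0.983, 1.13 and 0.905, on both sides of 1. Part of Nr1d1 is shared with Thra, a thyroid hormone receptor gene on the opposite strand, over 263 bases or 8.55% of its exons. No strand or overlap setting is given, so reads of that stretch may have been left out or counted to either gene. Thra measured 36.3, 36.9 and 28.6 CPM.

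Dbp, the output factor, differed most. It measured 7.97, 8.21 and 1.90 CPM (6.03 ± 3.58), from 287, 238 and 62 counts. Replicates 1 and 2 lay close together and replicate 3 stood at 0.235 of their mean. The exact 95% counting interval was 7.07 to 8.95 and 7.20 to 9.32 CPM in replicates 1 and 2 and 1.46 to 2.44 in replicate 3, with no overlap (chi-square test, adjusted p = 1.65e-29). The highest library exceeded the lowest by 4.32-fold, more than in 98.8% of the tested genes; for Per3 the ratio was 2.69-fold, more than in 96.0%. Dbp was the only member to vary beyond what genes of its level do: edgeR's goodness of fit against the trended dispersion gave an adjusted p of 0.00787 for Dbp and 0.285 for Per3. That test called 1.84% of 12737 genes. Dbp shares 539 bases, 18.0% of its exons, with Sphk2 on the opposite strand, a sphingosine kinase gene. Sphk2 measured 32.7, 30.7 and 36.9 CPM and was not lower in replicate 3.

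**Figure D2:**
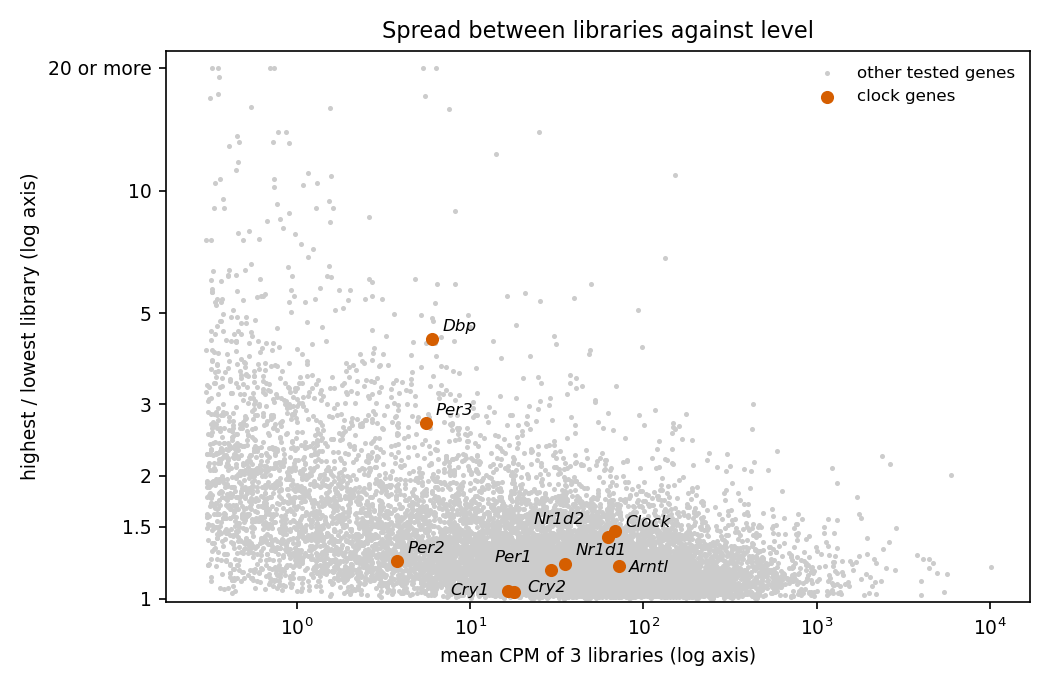
Highest library divided by lowest (log axis) against mean CPM (log axis) for the 12733 tested genes with a count in every library; the 6 genes at 20 or more are drawn at 20. Dbp at 4.32 and Per3 at 2.69 lie above most tested genes, and Cry1 and Cry2 at 1.04 lie along the lower edge.

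Over the set, 7 of 10 members varied between libraries beyond counting noise, close to the 65.7% of all 12737 genes that did. Of the 10, 5 varied and were lowest in replicate 3 (Per1, Per3, Nr1d1, Nr1d2 and Dbp), against 31.5% of all 12737 genes. Another 2 of the 10 varied and were highest there (Clock and Arntl), against 33% of all 12737 genes. The median of log2(replicate 3 / mean of replicates 1 and 2) was -0.20 over the members and -0.01 over all genes tested. This contrast of replicate 3 with the others was chosen after the values were seen. Without replicate 3 none of the 10 members differed between replicates 1 and 2 by the chi-square test, where 2.01% of genes did. The calls of all 7 varying members were thus lost without replicate 3. At an unadjusted p under 0.05 by the same test, 2 of the 10 differed between replicates 1 and 2, Per1 and Nr1d2. The share of all genes at that looser threshold was not computed, so this count cannot be set beside the 2.01%.

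**Figure D3:**
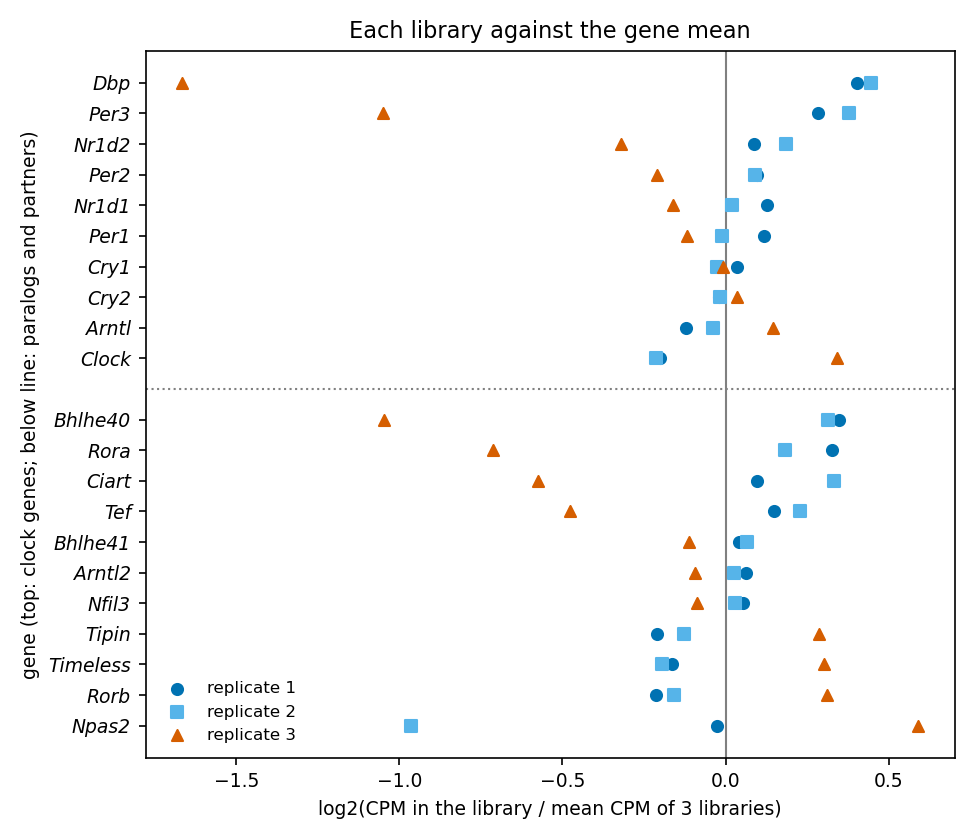
Log2 of CPM in each library over the mean of the 3 libraries, for the 10 clock genes (top) and the 11 tested paralogs and partners (below the dotted line), sorted by replicate 3. In replicate 3 (triangles) Dbp and Per3 lie furthest left among the clock genes and Clock and Arntl furthest right, and for Dbp, Per3 and Clock replicates 1 and 2 lie close together.

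The levels per length put the REV-ERB genes and Arntl first. In falling order of mean CPM per kilobase they were Nr1d2 (11.6 ± 2.05), Nr1d1 (11.5 ± 1.14), Arntl (9.56 ± 0.913), Per1 (5.20 ± 0.427), Clock (4.99 ± 1.15), Cry1 (4.97 ± 0.109), Cry2 (2.84 ± 0.0607), Dbp (2.01 ± 1.19), Per2 (0.647 ± 0.0755) and Per3 (0.575 ± 0.258). Of the 9 steps between neighbours, 2 exceeded the spread between libraries: Arntl to Per1 (1.84-fold) and Cry1 to Cry2 (1.75-fold). The other 7 steps did not exceed it. Cry2 lay above Dbp and Dbp above Per2 in all 3 libraries, by steps that varied widely. Among detected genes, Nr1d2 stood at percentile 62.6 of this scale, Clock at 38.1 and Per3 at 4.51. With the longest transcript Arntl came first and Per2 last.

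**Figure D4:**
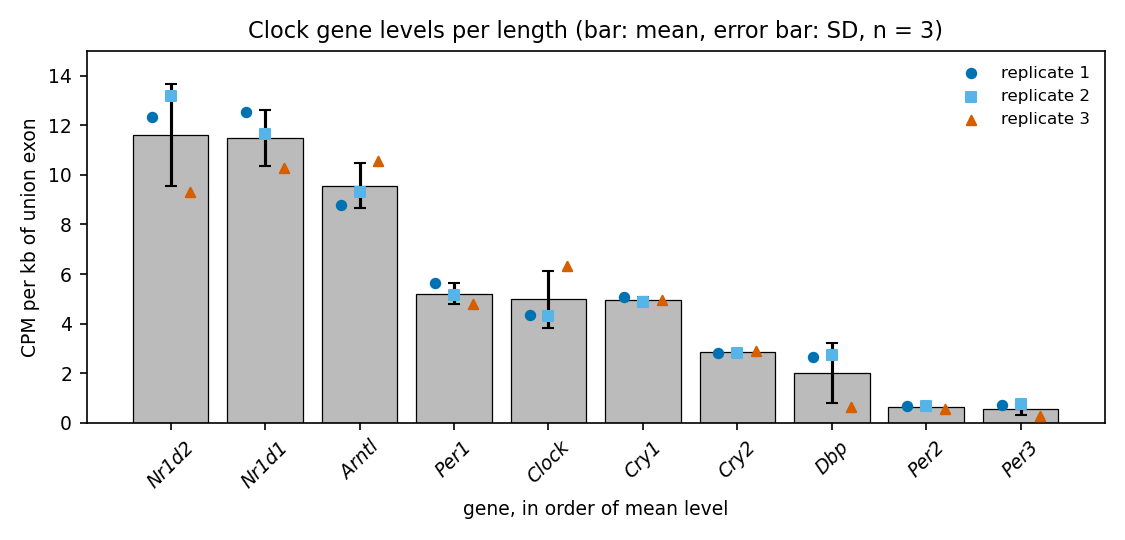
Mean CPM per kilobase of union exon for the 10 clock genes in falling order; bars are means, error bars SDs (n = 3) and points the libraries. Nr1d2, Nr1d1 and Arntl lie between 9.56 and 11.6, Per1, Clock and Cry1 near 5, and Per2 and Per3 below 1.

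Paralogs and partners of the core factors were mostly expressed, with a median of 21.1 CPM. Of 13, 10 were detected, Npas2 was split around 1 CPM, and 2, Hlf among them, lay below it in every library. Npas2, which can stand in for CLOCK in the forebrain, measured 0.861, 0.448 and 1.32 CPM, and Clock lay 28.8-fold above it per kilobase (range 22.7 to 44.3), or 82.6-fold without length. Arntl2, the second BMAL gene, measured 25.1, 24.5 and 22.5 CPM, and Arntl lay 2.26-fold above it per kilobase. Rora, an activator at ROR elements, measured 10.1, 9.18 and 4.93 CPM and stood at 0.0517 of Nr1d1 per kilobase, or 0.220 without length. These 3 ratios were larger than the spread. Rorb, another ROR receptor gene named after its values were seen, stood above Rora and went the other way. It measured 22.7, 23.5 and 32.6 CPM, highest in replicate 3.

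Of the other D-box factors, Tef and Nfil3 stood above Dbp in every library. Tef, a relative of Dbp, measured 64.1, 67.7 and 41.6 CPM and was, like Dbp, lowest in replicate 3. Dbp stood at 0.233 of Tef per kilobase (0.327, 0.319 and 0.121), or 0.0886 without length. Nfil3, the repressor that competes for D-boxes, measured 21.9, 21.6 and 19.9 CPM, and Dbp stood at 0.161 of it (0.246, 0.258 and 0.0652). Both ratios exceeded the spread, the second only with union exon length; it was 0.262 with the longest transcript and 0.252 without replicate 3. Hlf, the third relative, had 1 count in all. The E-box repressor Bhlhe40 measured 74.5, 72.9 and 28.4 CPM and was called by the edgeR goodness of fit (adjusted p = 0.000492). Its paralog Bhlhe41 measured 7.77, 7.90 and 6.99 CPM, so that their ratio per kilobase was 13.7, 13.2 and 5.79. Tipin, the partner of Timeless in fork protection and the highest of this group with Bhlhe40 and Tef, measured 51.7, 54.7 and 72.9 CPM. Of the 11 tested in this group, 8 varied beyond counting noise, 4 lowest and 4 highest in replicate 3. Of all genes tested, 65.7% varied, 31.5% varied and were lowest there, and 33% varied and were highest there.

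The genes whose products modify or assist clock proteins had higher median levels than the members: per kilobase, 24.5 CPM for kinases, 7.16 for ubiquitin ligases and deubiquitinases and 14.6 for coregulators, against 4.98. Their counts of varying genes stand against the same shares of all genes tested. Of those, 65.7% varied, 31.5% varied and were lowest in replicate 3, and 33% varied and were highest there. All 10 kinases were detected, led by Csnk1a1 (256 ± 18.9 CPM), Csnk2a1 (207 ± 7.19) and Csnk1d (204 ± 3.98). Csnk1d and Csnk1e, which mark PER proteins for degradation, differed 1.96-fold per kilobase (1.87 to 2.07), larger than the spread; with the longest transcript it was 1.29-fold. Of the 10, 5 varied, 4 of them lowest in replicate 3. Of 9 ubiquitin ligases and deubiquitinases, 8 were detected, led by Usp7 (231 ± 15.1), Usp14 (170.2 ± 15.4) and Fbxw11 (164 ± 11.0), and 7 varied, 5 lowest and 2 highest in replicate 3. All 12 coregulators were detected, led by Nono (572 ± 31.6), Sfpq (290.4 ± 0.899) and Ncor1 (231 ± 5.27), the corepressor that REV-ERB proteins recruit. Of these 11 varied, 8 highest and 3 lowest in replicate 3. The coregulators had a median of 124 CPM against 29.3 CPM over all genes tested. The chi-square test calls smaller differences at higher counts, so the shares are not matched for level. No coregulator was called by edgeR's goodness of fit.

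Output and input genes that varied went in both directions, and their counts too stand against all genes tested. Of those, 65.7% varied, 31.5% varied and were lowest in replicate 3, and 33% varied and were highest there. Of 10 common clock outputs, 9 were detected and Gys2 lay below 1 CPM. The list was led by Por (207 ± 4.84), Tspan4 (103 ± 11.5) and Nampt (96.9 ± 12.7). Of the 9 tested, 6 varied, 4 lowest and 2 highest in replicate 3. Usp2, a deubiquitinase gene of this list named after its values were seen, measured 5.08, 4.93 and 1.59 CPM. Wee1, a mitotic kinase gene and E-box target also named afterwards, measured 38.4, 38.4 and 38.9 CPM. All 12 genes of the signal routes to the Per promoters were detected, and 9 varied, 6 highest and 3 lowest in replicate 3. Fos measured 89.2, 94.1 and 188 CPM (edgeR goodness of fit, adjusted p = 0.00608), Srf measured 97.2, 95.9 and 139.9 CPM, and Egr1, another immediate early gene, did not vary beyond counting noise at 444, 441 and 433 CPM (chi-square test, adjusted p = 0.345). Per1 was lowest in replicate 3, where Fos and Srf were highest, and a link between them was not tested.

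Genes of the suprachiasmatic nucleus, the brain's central clock, were mostly at 0. Of 9, 6 had 0 counts in all libraries and Vip had 6 counts, all in replicate 1. Of the 24421 genes listed, 15325 to 15575 had a count in a given library. The homeobox gene Lhx1, which that nucleus shares with other tissues, measured 85.5, 89.6 and 102 CPM, and the receptor gene Prokr2 measured 4.11, 4.31 and 0.797 CPM. Both varied beyond counting noise, as did 65.7% of all genes tested.

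For all 12 gene pairs tested, 10 ratios were larger than the spread, meaning that each library gave a ratio above 1, or each below 1, with a mean log2 ratio of more than 2 SD. The exact two-sided sign-flip permutation p cannot go below 0.25 with 3 libraries, so no pair could reach 0.05.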

How the data were processed

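Raw read counts per gene symbol, 1 file per library, were deposited by the authors with 5 summary lines for unassigned reads, which were left out (15.2%, 15.2% and 17.1% of all reads in replicates 1, 2 and 3). Per the submitters' processing notes, Bowtie2 2.2.4, HTSeq and mm10 were used; their roles and the strand and overlap settings are not given in the sources used here. Those summary lines include reads counted as ambiguous between genes and reads aligned to several places. Which reads of overlapping genes were counted as ambiguous depends on the settings that are not given. Per the labels' protocols, libraries were made with a TruSeq RNA kit.

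CPM was computed over counts assigned to genes. Symbols were matched to GENCODE M21 (GRCm38, the assembly mm10 names): 23350 directly, including all 10 members, and 660 through synonyms, with 411 unmatched. Detected means 1 CPM in all 3 libraries. Genes whose mean count reached 10 entered a chi-square test of the 3 counts after TMM scaling (2 degrees of freedom, Benjamini-Hochberg at 0.05), which compares libraries with counting noise; edgeR 4.0.16 goodness of fit compares them with genes of like level. Pair ratios used CPM per kilobase of union exon with 0.5 counts added. The software was matplotlib 3.10.9, pandas 2.3.3, scipy 1.17.1 and numpy 2.4.6 under Python 3.11.15, and DESeq2 1.42.0 under R 4.3.3. The chi-square step was tested on simulated counts with counting noise only, which does not cover a wider spread between libraries. The members, lists and tests were chosen with earlier results of these data known. Named genes are all members, the 3 highest of each other list, those below 1 CPM in every library where fewer than 6, and genes of the pairs; some are not reported here. Alternatives were other scalings, filters, lengths, pseudocounts and leaving out each library.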

Additional observations from a re-analysis of the deposited data

How the results depend on the processing

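All 10 members stayed detected at 0.5 CPM and without any 1 library; at 5 CPM it was 7, without Per2, Per3 and Dbp. No member mean moved by more than 1 SD under another scaling. Leaving out 1 of 3 libraries cannot move a mean by 1 SD; without replicate 3 the mean of Dbp was 8.09 CPM and that of Per3 6.95 CPM. The count of members varying beyond counting noise, 7, stayed at 7 with DESeq2 size factors, with total counts and with no filter. It ranged from 0 (without replicate 3) to 7 when 1 library was left out. It was 1 (Dbp) by edgeR's goodness of fit, and 4 members (Clock, Per3, Nr1d2 and Dbp) lay above the DESeq2 dispersion trend, as did 22.7% of genes. Leaving out replicate 3 compares libraries that differ in 2.01% of genes only. Of the other 7 lists, varying genes without replicate 3 fell to between 0 and 2, an alternative added after seeing the data.

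The count of neighbouring levels that exceeded the spread, 2, was 4 without length correction and ranged from 2 to 6 (without replicate 3) with 1 library left out. The log2 ratio of Per2 to Per3 (0.30) turned to -0.38 with the longest transcript, -0.42 without length, and ranged from -0.063 (without replicate 3) to 0.50 with 1 library left out. That of Cry1 to Cry2 (0.80) turned to -0.12 without length, by the construction of that scale. That of Nr1d2 to Nr1d1 (0.00) turned to -0.033 with replicates 1 and 2 averaged, and ranged from -0.085 (without replicate 2) to 0.079 (without replicate 3). Without length it was 0.82 and larger than the spread. Of the 12 pairs, 9 or 10 exceeded the spread under every alternative run. The cause of these changes was not tested. No paired analysis was possible because the samples form 1 group. Per2 (370 counts in all), Per3 and Dbp carry the least depth.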
